A study of Rattus norvegicus with 12 samples.

Results

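Pulmonary surfactant is the film of phospholipid and protein that lowers surface tension in the air spaces of the lung. It is made by alveolar type II cells, the cuboidal cells of the alveolar wall, which assemble phospholipid and the hydrophobic proteins SP-B and SP-C in lamellar bodies and release them together with the collectins SP-A and SP-D. SP-C is restricted to type II cells in the adult lung, whereas SP-A, SP-B and SP-D are also made by club cells, the secretory cells of the conducting airways. These genes therefore report both on alveolar tissue within a specimen and on the secretory epithelium of the bronchus. The 9 genes described here were Sftpa1, Sftpb, Sftpc, Sftpd, Napsa, Lamp3, Abca3, Slc34a2 and Lpcat1. All 9 had a probe set in the annotation of the array, with 12 probe sets among the 31042 probe sets tested and 9 of the 14217 genes named by them. Each gene was represented by its probe set of highest mean signal over the 12 arrays.

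The specimens were bronchi cut by laser capture microdissection from frozen sections of the right diaphragmatic lung lobe of young male Wistar-Han rats. Fibrotic bronchi (n = 3; replicates 3, 7 and 9) and non-fibrotic bronchi (n = 3; replicates 4, 8 and 10) came from rats that had inhaled 200 ppm 2,3-pentanedione, a butter-flavoring diketone, for 2 weeks, and control bronchi (n = 6; replicates 1 to 6) came from rats that had breathed filtered air. The fibrotic specimens held polyps or plaques within the lumen and the lamina propria, smooth muscle and adventitia beneath them, and the non-fibrotic specimens were other bronchial branches of some of the exposed rats, with normal or reactive epithelium. The non-fibrotic bronchi were cut from the same sections of some rats that gave fibrotic bronchi. The labels do not tie a specimen to a rat, so arrays of the same rat may lie in both exposed groups. The tests left out any such pairing, and the p-values measure the spread between arrays.

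Each value is the log2 of a signal from the MAS5 algorithm, scaled on each array to a trimmed mean of about 500, so 1 unit is a doubling. The highest log2 signal of the bacterial tryptophan control probe sets, for which no transcript was added, was 6.52 and was taken as the background level. Between 60.0% and 70.6% of probe sets lay above it on each array. The descriptions of control replicates 1 and 2 are written like those of the exposed specimens and those of control replicates 3 to 6 in another form. The mean log2 signal of the polyadenylated spike-in probe sets was 2.31 and 2.33 on control replicates 1 and 2 but 8.02 or more on every other array, and the 3′ minus 5′ log2 signal of GAPDH was 1.59 to 2.35 on the exposed arrays, 1.16 and 2.03 on control replicates 1 and 2, and 0.70 to 0.90 on control replicates 3 to 6. Values with control replicates 1 and 2 as the only controls are given beside the calls of fibrotic or non-fibrotic against control bronchi that they end.

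The members fell into 3 patterns. Sftpb, Sftpd and Abca3 were lower on every fibrotic array than on every control array and passed the test. Sftpc, Lamp3 and Slc34a2 varied from array to array within the fibrotic and the control bronchi. They varied less in non-fibrotic bronchi, where their means were highest, and passed the test in no comparison. Napsa and Lpcat1 had higher means in fibrotic than in control bronchi, without passing the test. Sftpa1 lay between the patterns, low on 2 fibrotic arrays and high on the other.

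**Figure D1:**
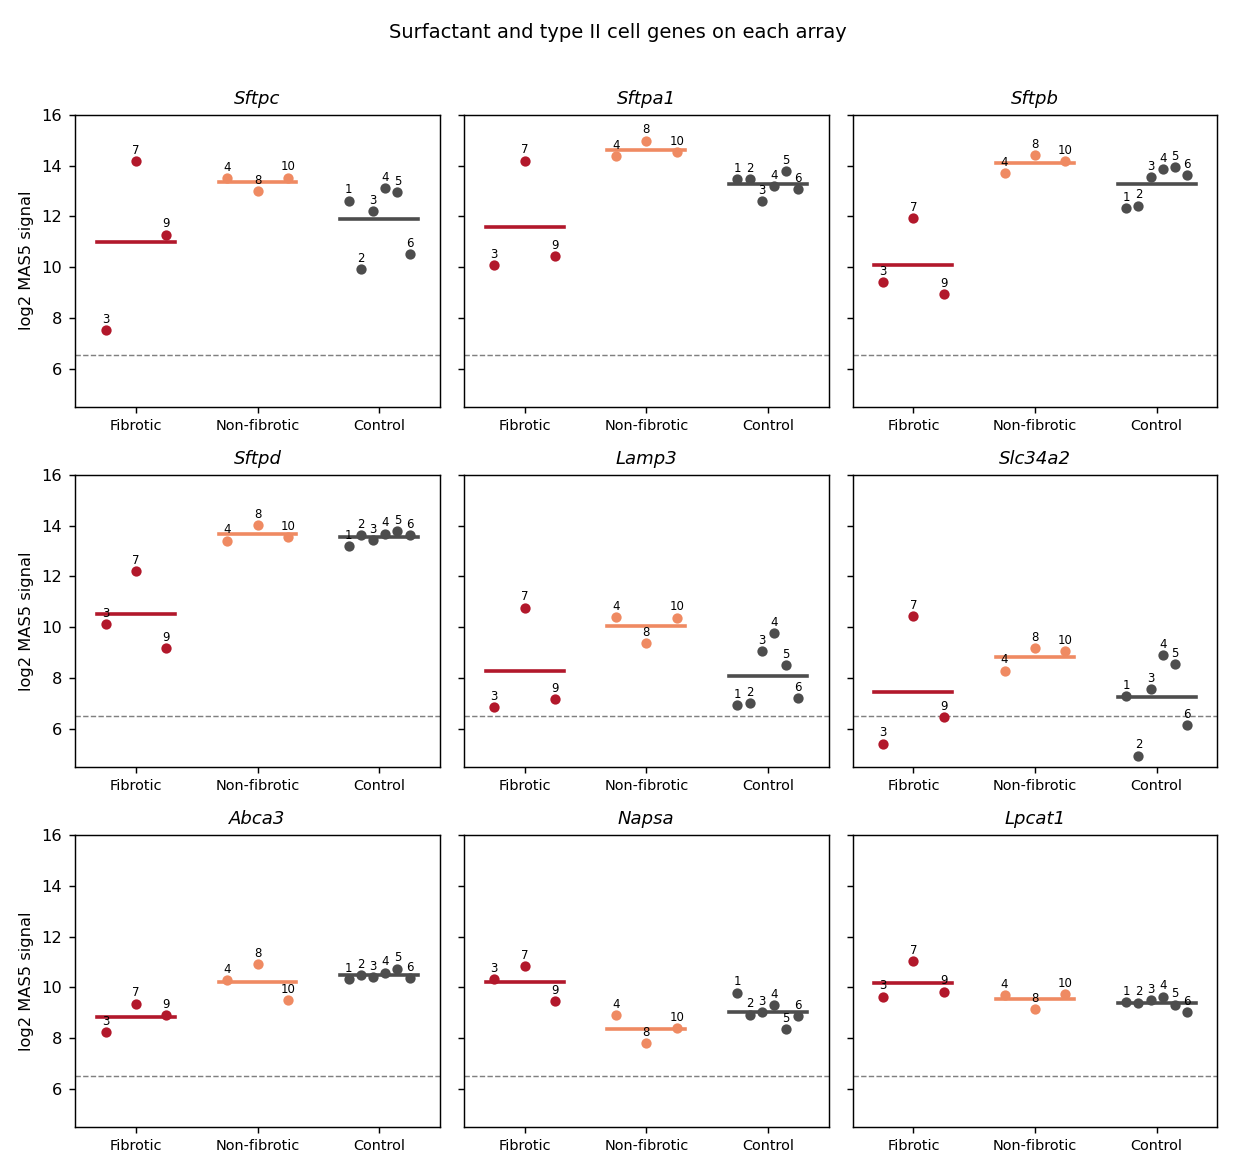
Log2 MAS5 signal of the 9 genes on each array, by group, with the replicate number above each point, the group mean as a bar and the background level of 6.52 as a dashed line. Sftpb, Sftpd and Abca3 separate the fibrotic arrays from the controls, whereas Sftpc, Lamp3 and Slc34a2 spread widely within both groups and fibrotic replicate 7 is the highest fibrotic array in each panel.

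Surfactant proteins were the first class. Sftpc encodes SP-C and is the gene of the set most restricted to type II cells. Its log2 signals were 7.51, 14.17 and 11.28 in fibrotic replicates 3, 7 and 9, 13.52, 12.99 and 13.53 in non-fibrotic replicates 4, 8 and 10, and 12.62, 9.91, 12.21, 13.10, 12.94 and 10.51 in control replicates 1 to 6. It was above the background level on all 12 arrays, bronchi of air-exposed rats included. The highest and the lowest array differed by 6.66 among fibrotic bronchi (101-fold), by 0.53 among non-fibrotic bronchi and by 3.19 among controls, and fibrotic replicate 7 was above, and fibrotic replicate 3 below, every control. The standard deviation of Sftpc among fibrotic arrays, 3.34, was exceeded by 0.0496% of the 8058 genes with a mean log2 signal of at least 8, whose median standard deviation was 0.34. Among controls its standard deviation of 1.34 was exceeded by 0.844% of those genes. Sftpc did not pass the test in any comparison. The difference of fibrotic minus control was -0.90 (SE 1.01, adjusted p = 0.579, limma), that of non-fibrotic minus control was 1.46 (SE 1.01, adjusted p = 0.369) and that of fibrotic minus non-fibrotic was -2.36 (SE 1.16, adjusted p = 0.239). Without fibrotic replicate 3 the difference of fibrotic minus control was 0.84, and without fibrotic replicate 7 it was -2.49. Because the RNA of each specimen was pooled over all its cells, fewer type II cells in a specimen and less Sftpc RNA per cell cannot be told apart, and the same holds for the other genes.

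Sftpb encodes SP-B, which is needed for the surface film and for lamellar bodies. Its log2 signals were 9.41, 11.94 and 8.94 in fibrotic replicates 3, 7 and 9, 13.70, 14.42 and 14.16 in non-fibrotic replicates 4, 8 and 10, and 12.33, 12.42, 13.53, 13.86, 13.94 and 13.64 in control replicates 1 to 6. Every fibrotic array was below every control, the control replicates closest to them being 1 and 2. Sftpb fell by 3.19 in fibrotic against control bronchi (9.13-fold; SE 0.52, adjusted p = 0.000472). With control replicates 1 and 2 as the only controls the change was -2.28 and did not pass (adjusted p = 0.0687), and with a fixed term for the form of the description the adjusted p was 0.0246. Its second probe set read 3.02, 7.35 and 2.34 in fibrotic bronchi, against 7.72 to 11.92 in control bronchi, and its fitted change was -6.10, or -3.54 with every array below the background level set to that level (adjusted p of the fit 0.000454).

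Sftpd encodes the collectin SP-D, which binds microbial sugars in the airway and alveolar lining fluid. This gene read 10.12, 12.21 and 9.18 in fibrotic replicates 3, 7 and 9, 13.41, 14.02 and 13.54 in non-fibrotic replicates 4, 8 and 10, and 13.20 to 13.80 in control bronchi, with a median of 13.62. The controls were tightly grouped and all 3 fibrotic arrays were below them. Sftpd fell by 3.06 in fibrotic against control bronchi (8.31-fold; SE 0.43, adjusted p = 0.000116), and by 2.90 with control replicates 1 and 2 as the only controls (adjusted p = 0.0192, which did not pass).

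Sftpa1 encodes SP-A, the more abundant collectin of surfactant. The log2 signals of Sftpa1 were 10.08, 14.19 and 10.43 in fibrotic replicates 3, 7 and 9, 14.38, 14.98 and 14.54 in non-fibrotic replicates 4, 8 and 10, and 12.61 to 13.79 in control bronchi, with a median of 13.33. Fibrotic replicate 7 was above all controls and the other fibrotic replicates were below all of them, so no fibrotic array lay within the control range. The change in fibrotic against control bronchi was -1.70 and did not pass (SE 0.61, adjusted p = 0.0664). Without fibrotic replicate 7, which leaves replicates 3 and 9 as the fibrotic arrays, it was -3.02 and passed (adjusted p = 4.56e-06). Each array was left out in turn, and this fit is singled out because replicate 7 held the high value. Its pass is therefore no separate support for a fall. Leaving out 1 array at a time, the change ranged over -3.02 to -0.96. In non-fibrotic bronchi all 3 arrays were above every control, with a difference of 1.36 (SE 0.61) that did not pass (adjusted p = 0.17). In the fit without fibrotic replicate 7 the difference was again 1.36 and its SE was 0.23. It passed there (adjusted p = 0.00904), where 0.445% of all probe sets were called. The array left out was in neither group compared and entered only the spread shared by the groups.

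The next class was the lamellar body and its contents. Lamp3 encodes DC-LAMP, a protein of the limiting membrane of lamellar bodies that is also found in mature dendritic cells. Its log2 signals were 6.86, 10.77 and 7.16 in fibrotic replicates 3, 7 and 9, 10.41, 9.37 and 10.38 in non-fibrotic replicates 4, 8 and 10, and 6.92, 7.00, 9.04, 9.77, 8.49 and 7.20 in control replicates 1 to 6. Control replicates 1, 2 and 6 and fibrotic replicates 3 and 9 were close to the background level. No comparison passed, and the largest difference was 1.98 in non-fibrotic against control bronchi (SE 0.78, adjusted p = 0.124). The difference of fibrotic minus control was 0.19 with all arrays and -1.06 without fibrotic replicate 7.

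Abca3 encodes the transporter that loads phospholipid into lamellar bodies. On the log2 scale it read 8.24, 9.36 and 8.91 in fibrotic replicates 3, 7 and 9, 10.29, 10.91 and 9.48 in non-fibrotic replicates 4, 8 and 10, and 10.32 to 10.73 in control bronchi, with a median of 10.44. All fibrotic arrays were below all controls, and the control bronchi were tightly grouped. Abca3 fell by 1.64 in fibrotic against control bronchi (3.12-fold; SE 0.30, adjusted p = 0.00126). The call was lost without fibrotic replicate 3 (adjusted p = 0.0131), with the second probe set (change -1.64, adjusted p = 0.0123), with control replicates 1 and 2 as the only controls (adjusted p = 0.091) and with a fixed term for the form of the description (adjusted p = 0.0196).

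Napsa encodes napsin A, an aspartic protease that processes the SP-B precursor. Its log2 signals were 10.31, 10.84 and 9.47 in fibrotic replicates 3, 7 and 9, 8.92, 7.79 and 8.40 in non-fibrotic replicates 4, 8 and 10, and 8.35 to 9.79 in control bronchi, with a median of 8.97. Fibrotic replicates 3 and 7 were above every control and replicate 9 was not. The difference was 1.17 in fibrotic against control bronchi (SE 0.37, adjusted p = 0.0368) and 1.84 in fibrotic against non-fibrotic bronchi (SE 0.42, adjusted p = 0.0119), neither of which passed. The second passed without fibrotic replicate 9 (adjusted p = 0.00666), non-fibrotic replicate 4 (0.00658) or control replicate 1 (0.00889). Its sign in fibrotic bronchi was opposite to that of Sftpb, whose precursor the enzyme processes.

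The remaining genes serve phosphate transport and phospholipid remodeling. Slc34a2, the sodium-phosphate cotransporter of the type II cell apical membrane, had log2 signals of 5.41, 10.45 and 6.46 in fibrotic replicates 3, 7 and 9, 8.29, 9.18 and 9.05 in non-fibrotic replicates 4, 8 and 10, and 7.29, 4.93, 7.56, 8.91, 8.56 and 6.14 in control replicates 1 to 6. Fibrotic replicates 3 and 9 and control replicates 2 and 6 were under the background level. The difference of fibrotic minus control was 0.21 (SE 0.95, adjusted p = 0.911), or 0.27 with arrays under the background level set to it, and that of non-fibrotic minus control was 1.61 (SE 0.95, adjusted p = 0.293), or 1.28 on that scale. Lpcat1, the acyltransferase that makes the dipalmitoyl phosphatidylcholine of surfactant, had log2 signals of 9.64, 11.04 and 9.83 in fibrotic replicates 3, 7 and 9, 9.68, 9.13 and 9.74 in non-fibrotic replicates 4, 8 and 10, and 9.01 to 9.63 in control bronchi, with a median of 9.40. Its fibrotic arrays were all above its controls, although fibrotic replicate 3 at 9.64 lay next to the highest control at 9.63, and the difference of 0.79 did not pass (SE 0.30, adjusted p = 0.0807).

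The first comparison asked how the fibrotic lesions differed from normal bronchi. Of the 9 members, 3 fell (Sftpb, Sftpd and Abca3), none rose and 6 did not pass at an adjusted p under 0.01, where 6.4% of all probe sets tested fell, 2.99% rose and 9.39% were called in either direction. The median change of the members was -0.90, beside 0.10 over all 14217 genes. The arrays did not overlap for 4 members, 3 of them lower and Lpcat1 higher, where 11.3% of probe sets were wholly lower and 12.3% wholly higher. With control replicates 1 and 2 as the only controls no member passed (limma), the lowest adjusted p being 0.0192 for Sftpd, and 1.31% of all probe sets were called. With fibrotic replicate 7 left out as well, a setting chosen after seeing the data, Sftpa1, Sftpb and Sftpd passed. That fit set fibrotic replicates 3 and 9 against control replicates 1 and 2, and 0.966% of all probe sets were called. Without fibrotic replicate 7 and with all controls, 4 members passed, Sftpa1 in addition to the 3 above, and 5.99% of all probe sets were called. The array left out is the fibrotic array with high Sftpa1, so that pass is no separate support for a fall.

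The second comparison asked whether exposed bronchi without fibrosis differed from normal bronchi. None of the 9 members passed (limma), beside 0.522% of all probe sets, and Sftpa1 and Lamp3 had an unadjusted p under 0.05. The median difference was 0.81, beside 0.00 over all genes, and the 7 members other than Napsa and Abca3 had higher means in non-fibrotic bronchi. Sftpa1 was the only member whose non-fibrotic and control arrays did not overlap, where 9.23% of probe sets were wholly higher. The mean log2 signal over the 9 members was 11.40, 11.42 and 11.43 on the non-fibrotic arrays and 10.02 to 11.34 on the controls.

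The third comparison set fibrotic against non-fibrotic bronchi of exposed rats. Sftpb fell by 4.00 (16-fold; SE 0.60, adjusted p = 0.000612) and Sftpd by 3.16 (8.92-fold; SE 0.49, adjusted p = 0.00083), and the other 7 members did not pass, where 2.75% of probe sets fell and 3.82% were called in either direction. The differences were -3.06 for Sftpa1 (SE 0.71, adjusted p = 0.0123) and -1.39 for Abca3 (SE 0.35, adjusted p = 0.0195, and 0.00663 without non-fibrotic replicate 10). The arrays did not overlap for 5 members, of which Sftpa1, Sftpb, Sftpd and Abca3 were lower and Napsa was higher, where 12.2% of probe sets were wholly lower and 10.9% wholly higher. The median difference was -1.79, beside 0.00 over all genes. This comparison and the first share the fibrotic arrays. Without fibrotic replicate 7, Sftpa1 passed as well (-4.38, adjusted p = 1.56e-06), and 2.49% of all probe sets were called. Here too the array left out is the fibrotic array with high Sftpa1. Leaving out 1 array at a time, the difference of Sftpa1 ranged over -4.38 to -2.32. With control replicates 1 and 2 as the only controls in the fit, Sftpb and Sftpd passed, and 1.66% of all probe sets were called.

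**Figure D2:**
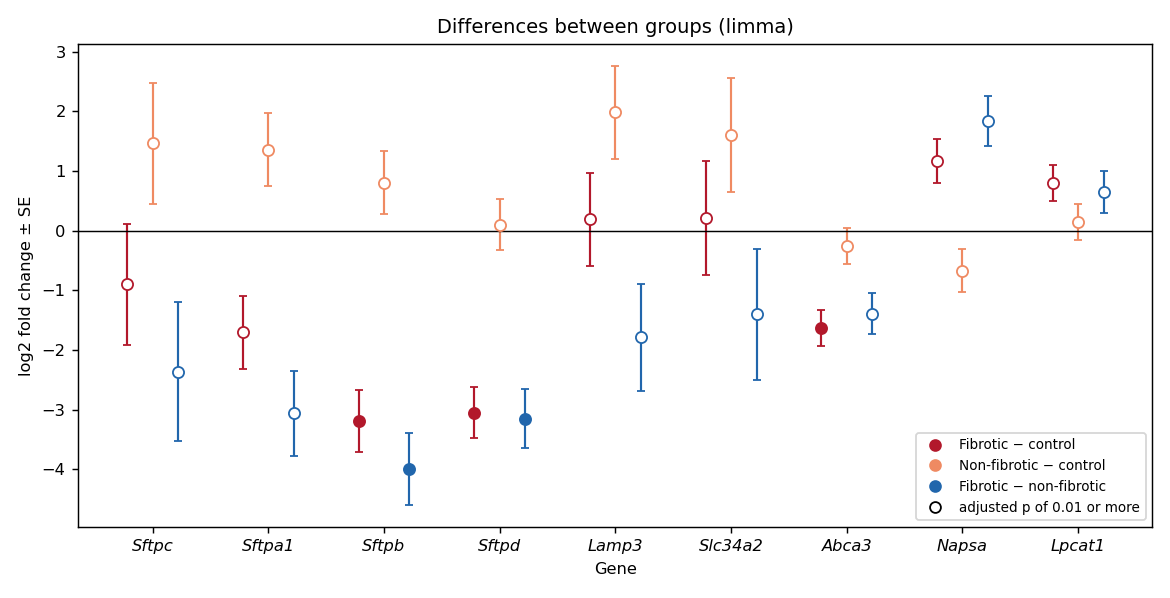
Log2 fold change of each of the 9 genes with its standard error (limma) in fibrotic minus control, non-fibrotic minus control and fibrotic minus non-fibrotic bronchi, with filled points for an adjusted p under 0.01 and open points otherwise. Only Sftpb, Sftpd and Abca3 have filled points, all below 0.

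Among the fibrotic arrays, replicate 7 had the highest signal for 9 of the 9 members. It lay above all 6 controls for 6 of them and below all 6 for 3. The shares of all probe sets for which replicate 7 held these positions were not counted. Several members varied together, with a Pearson's r with Sftpc of 0.89 for Slc34a2 and 0.79 for Lamp3. The counts therefore describe only the 9 genes on that array. Set against the control mean of each gene, Slc34a2 was 3.22, Lamp3 2.70, Sftpc 2.28, Napsa 1.80, Lpcat1 1.66 and Sftpa1 0.92 higher on that array. On the same array Sftpb was 1.35, Sftpd 1.35 and Abca3 1.12 lower than the control mean (deviations of -1.35, -1.35 and -1.12). The genes thus moved in opposite directions within a single array. Fibrotic replicate 3 showed the lowest Sftpc and Slc34a2 of its group and fibrotic replicate 9 the lowest Sftpb and Sftpd. The overall correlation of the fibrotic arrays with each other did not single out replicate 7, at 0.881 to 0.883 for the 3 pairs.

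**Figure D3:**
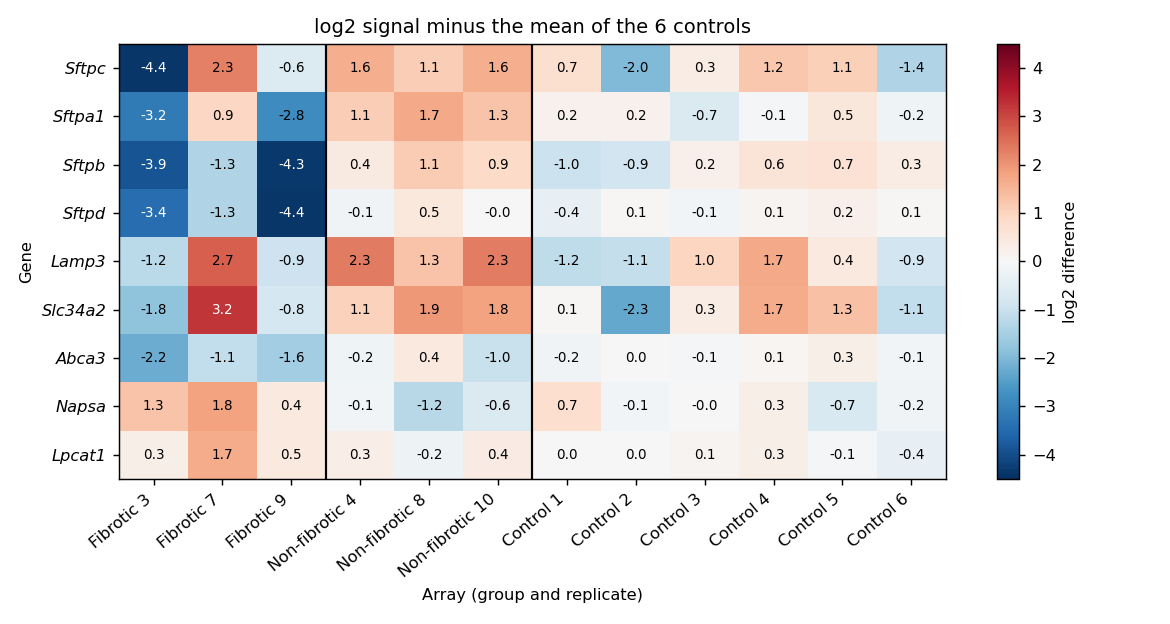
Log2 signal of each gene on each array minus the mean of the 6 controls, with the difference printed in each cell. Fibrotic replicate 7 is positive for 6 genes and negative for Sftpb, Sftpd and Abca3, and the non-fibrotic arrays are positive throughout for Sftpc, Sftpa1, Sftpb, Lamp3 and Slc34a2.

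Genes with a pattern like that of Sftpc were then listed as a description, by Pearson's r over the 12 arrays among 8057 other genes with a mean log2 signal of at least 8. The 12 points share 3 groups, so part of any likeness is that of the groups. The gene most like Sftpc was Defb4, a beta-defensin, with r = 0.96. Defb4 read 4.15, 10.80 and 7.46 in fibrotic replicates 3, 7 and 9, 10.08, 10.70 and 9.15 in non-fibrotic replicates 4, 8 and 10, and 9.32, 5.98, 8.04, 9.58, 8.82 and 7.29 in control replicates 1 to 6. It repeated the low values of fibrotic replicate 3 and of control replicates 2 and 6. The next were Afap1l1 (0.87), Prrg3 (0.84), Dpep1 (0.84), LOC102551819 (0.84), Ncdn (0.84), Irf2bpl (0.83), Efnb1 (0.83), Cachd1 (0.80) and Lamp3 (0.79). Lamp3 held place 10 and Sftpa1 place 25 (r = 0.75), followed by Sftpb at place 123 (r = 0.60), Sftpd at 346 (r = 0.49), Abca3 at 415 (r = 0.46) and Lpcat1 at 987 (r = 0.33). Napsa had r = -0.22. Slc34a2 had a mean below the limit of 8 and was not ranked, and its r with Sftpc was 0.89. Among the members r was thus highest for Slc34a2, Lamp3 and Sftpa1 and lower for Sftpb, Sftpd and Abca3.

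Alveolar type I cells, the flat cells that cover most of the alveolar surface, were examined beside the type II genes, because alveolar wall carries both. Of 19 listed genes 16 had a probe set. The counts for this and the later lists stand beside the same shares of all probe sets as those of the members. These were 2.99% that rose and 6.4% that fell in fibrotic against control bronchi. In either direction 0.522% were called in non-fibrotic against control and 3.82% in fibrotic against non-fibrotic bronchi. In fibrotic against control bronchi 2 rose and 2 fell with a median change of 0.11 (0.10 over all genes), in non-fibrotic against control bronchi 1 rose and none fell with a median of 0.86 (0.00 over all genes), and in fibrotic against non-fibrotic bronchi 1 rose and 3 fell with a median of -0.77 (0.00 over all genes). Ager, the receptor for advanced glycation end products and a defining type I marker, read 7.23, 7.92 and 6.77 in fibrotic replicates 3, 7 and 9, 9.17, 8.42 and 9.84 in non-fibrotic replicates 4, 8 and 10, and 8.54, 7.11, 6.47, 7.57, 7.39 and 7.08 in control replicates 1 to 6. It was above the background level on every array but that of control replicate 3. Its differences were -0.05 in fibrotic (adjusted p = 0.959) and 1.79 in non-fibrotic (SE 0.46, adjusted p = 0.0371) against control bronchi, and neither passed. The control with the highest Ager, replicate 1, was not the control with the highest Sftpc, and fibrotic replicate 7 had the highest value of both among fibrotic arrays.

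Other type I genes did not share one direction in fibrotic against control bronchi. In non-fibrotic against control bronchi the differences of the 16 ranged over -1.47 to 3.57, with the median of 0.86 given above. Cldn18, a claudin whose lung form marks alveolar epithelium, read 9.81, 11.17 and 9.56 in fibrotic bronchi, 11.35, 10.18 and 11.02 in non-fibrotic bronchi, and 6.79 to 9.04 in control bronchi. It rose by 2.18 in fibrotic (adjusted p = 0.00555) and by 2.85 in non-fibrotic bronchi (adjusted p = 0.00743), and with control replicates 1 and 2 as the only controls it did not pass in either (adjusted p = 0.103 and 0.134). Its adjusted p in fibrotic bronchi was 0.0508 without fibrotic replicate 7, 0.0152 without fibrotic replicate 3, 0.0123 without control replicate 3 and 0.0102 without control replicate 6. In non-fibrotic bronchi the call was lost without any one of the non-fibrotic arrays (0.016 to 0.0302) or of control replicates 2 to 6 (0.0101 to 0.0199). Pdpn, podoplanin, which also marks lymphatic vessels, basal cells and activated fibroblasts, rose by 2.77 in fibrotic bronchi (adjusted p = 8.26e-06). Aqp5, a water channel that is also made in airway glands and epithelium, fell by 4.08 in fibrotic bronchi (adjusted p = 5.2e-06). Igfbp2, an insulin-like growth factor binding protein of type I cells, read 5.75, 6.52 and 7.64 in fibrotic bronchi, 10.74, 13.02 and 12.23 in non-fibrotic bronchi, and 6.62 to 10.09 in control bronchi. It was 3.57 higher in non-fibrotic than in control bronchi without passing (SE 0.78, adjusted p = 0.0216), and it fell by 5.36 in fibrotic against non-fibrotic bronchi (adjusted p = 0.00153), as did Clic5 by 2.33 (adjusted p = 0.000887). The Igfbp2 call was lost without fibrotic replicate 3 (0.011), non-fibrotic replicate 8 (0.0124) or non-fibrotic replicate 10 (0.0108).

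**Figure D4:**
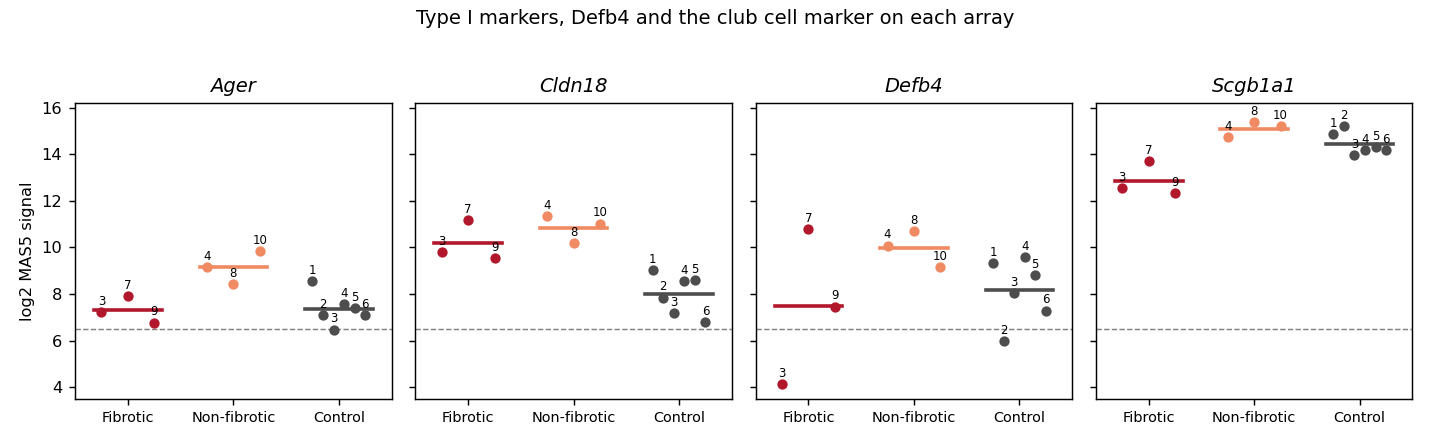
Log2 MAS5 signal of the type I markers Ager and Cldn18, of Defb4 and of the club cell marker Scgb1a1 on each array, by group, with the replicate number above each point, the group mean as a bar and the background level as a dashed line. The mean of Ager is highest in non-fibrotic bronchi, Cldn18 is above all controls in both exposed groups, Defb4 follows Sftpc and Scgb1a1 is below all controls in fibrotic bronchi.

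Of 13 further genes that mark type II cells, 3 rose and 3 fell in fibrotic against control bronchi. Muc1 (-2.05, adjusted p = 0.00259), Kcnj15 (-3.35, adjusted p = 4.81e-05) and Fgfr2 (-2.95, adjusted p = 0.000239) fell, and all 3 are also used by airway epithelium. Cebpa, Fabp5 and Lyz2 rose, of which Lyz2 encodes a lysozyme and Fabp5 a fatty acid binding protein that macrophages make as well. Their median change was 0.57, and 0.36 with values under the background level set to it, beside 0.10 over all genes. All 6 calls were lost with control replicates 1 and 2 as the only controls, with adjusted p-values of 0.215 for Muc1, whose change was then -0.98, 0.0156 for Kcnj15, 0.0409 for Fgfr2, 0.0296 for Cebpa, 0.106 for Fabp5 and 0.346 for Lyz2. Muc1 also lost its call without fibrotic replicate 3 (0.0153) or 9 (0.0225), and Fabp5 without fibrotic replicate 3 (0.0298) or 7 (0.0151). Lyz2, at an adjusted p of 0.00983 with all arrays, lost it without any one array other than fibrotic replicate 9 and control replicates 1 and 2 (0.0121 to 0.0758). In non-fibrotic bronchi Cebpa was the only one to pass, and it did not without non-fibrotic replicate 8 (0.0125).

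Airway epithelial cells were represented by separate lists of club, ciliated, and basal and squamous cell genes, and the amount of epithelium was not measured. Of 8 basal and squamous cell genes with a probe set (of 10 listed), 1 rose and none fell in fibrotic against control bronchi. Their median change was 2.05, or 0.61 with values under the background level set to it. Against control replicates 1 and 2 alone none passed, with a median of 0.51. All 13 ciliated cell genes with a probe set (of 18 listed) fell in fibrotic against control bronchi, with a median change of -4.55, and 11 of 13 club cell genes (of 15 listed) fell, with a median of -4.48. The mean log2 signal of the club cell list was 6.66 to 7.63 on the fibrotic arrays, 9.60 to 10.96 on the non-fibrotic arrays and 11.78 to 12.81 on the controls, with no overlap. Fibrotic replicate 7 had the highest club cell mean of its group, 7.63, below the lowest control, 11.78. Scgb1a1, the secretoglobin that defines club cells, read 12.55, 13.70 and 12.34 in fibrotic bronchi, 14.73, 15.37 and 15.22 in non-fibrotic bronchi, and 13.98 to 15.22 in control bronchi, and it fell by 1.59 in fibrotic bronchi (adjusted p = 0.00151), a call lost without fibrotic replicate 3 (0.0155) or 9 (0.015). The fall of Sftpb, Sftpd and Abca3 in fibrotic bronchi was thus accompanied by falls in the club and ciliated cell lists, and the part of either cell type in it was not tested. In non-fibrotic bronchi 3 club cell genes fell, with a median of -1.02, and 1 ciliated cell gene fell, with a median of -0.40, while the members had a median of 0.81. Against control replicates 1 and 2 alone, 8 club and 13 ciliated cell genes fell in fibrotic bronchi, and in non-fibrotic bronchi 1 club cell gene fell and the ciliated cell call was lost.

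**Figure D5:**
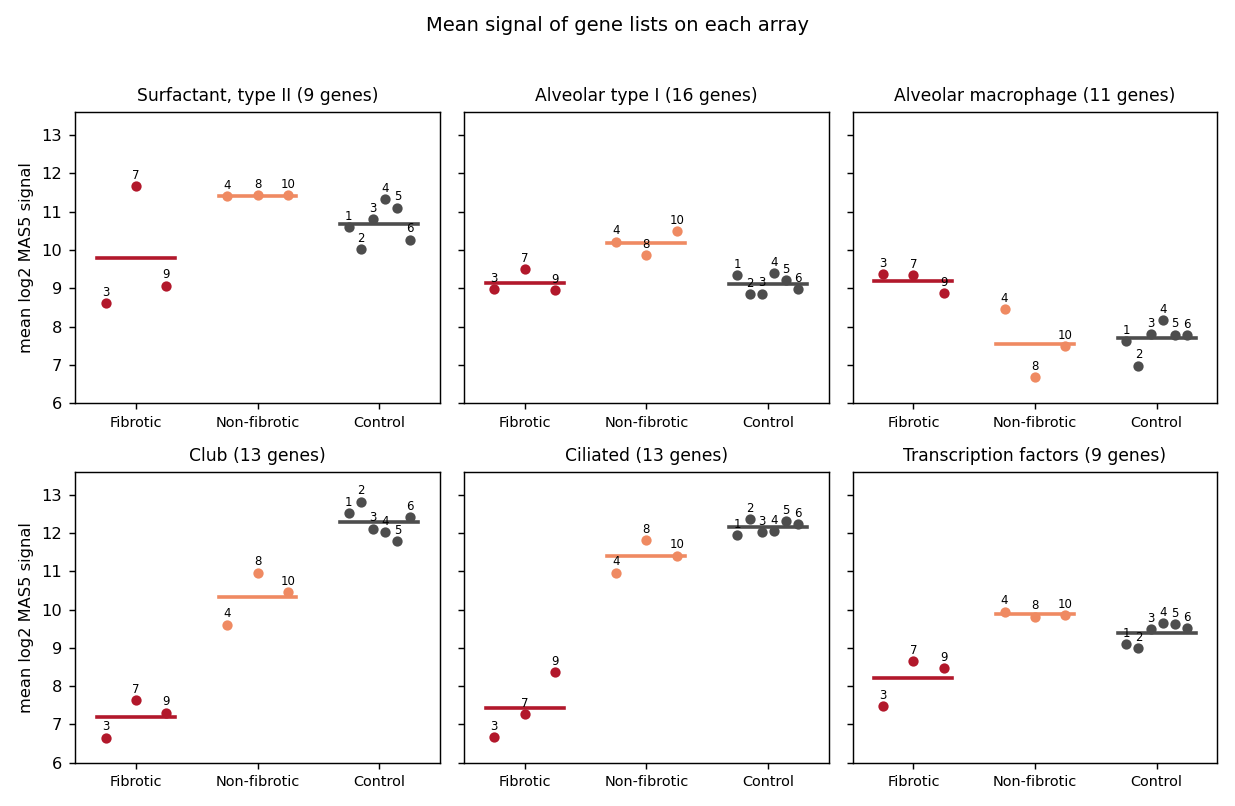
Mean log2 MAS5 signal of 6 gene lists on each array, by group, with the replicate number above each point and the group mean as a bar. The club and ciliated cell lists are lowest in fibrotic bronchi on every array, the type I list is highest in non-fibrotic bronchi, and the surfactant list spreads over 8.62 to 11.66 among fibrotic arrays.

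Other alveolar and immune cell lists moved less or differently. Of 11 alveolar macrophage genes with a probe set (of 14 listed), 3 rose and none fell in fibrotic against control bronchi, with a median of 1.03. Mrc1, the mannose receptor (4.55, adjusted p = 0.00341), and Cd68, a macrophage lysosomal protein (2.80, adjusted p = 0.0055), were among them, and with control replicates 1 and 2 as the only controls 1 gene of the list passed, Cd68 not among them (adjusted p = 0.0955). Cd68 also lost its call with control replicates 3 to 6 only (0.0148) and without any one of fibrotic replicates 3 and 7 and control replicates 2, 4, 5 and 6 (0.0101 to 0.0438), and Mrc1 without any one of the fibrotic arrays (0.0108 to 0.0231). The mean signal of that list was 8.86 to 9.36 on fibrotic, 6.69 to 8.45 on non-fibrotic and 6.98 to 8.17 on control arrays, and fibrotic replicate 7 (9.33) was not the highest. Of 7 mature dendritic cell genes, Cd80 and Ccl22 rose, but neither passed with control replicates 1 and 2 as the only controls (adjusted p = 0.0475 and 0.209), and Ccl22 lost its call without any one of the fibrotic arrays or of control replicates 2 to 6 (adjusted p of 0.0104 to 0.052) and with control replicates 3 to 6 only (0.0104). The mean of the list was 8.65 to 9.03 on fibrotic, 5.15 to 7.48 on non-fibrotic and 6.02 to 7.24 on control arrays. All fibrotic arrays were above all controls in that list, whereas Lamp3 was above all controls on replicate 7 alone of them. Of 17 alveolar capillary genes 2 rose in fibrotic bronchi (Apln and Tmem100) and none passed in non-fibrotic bronchi, and of 12 alveolar fibroblast genes 1 rose (Pdgfra) and 1 fell (Col13a1) in fibrotic bronchi. All 4 of these calls were lost with control replicates 1 and 2 as the only controls (adjusted p = 0.0154 for Apln, 0.0593 for Tmem100, 0.0151 for Pdgfra and 0.0703 for Col13a1). Tmem100 also lost its call without fibrotic replicate 7 (0.0205).

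The transcription factors that drive surfactant genes were compared as a list of 10, of which 9 had a probe set. In fibrotic against control bronchi 3 fell and 1 rose, with a median of -1.05. Nkx2-1, the homeodomain factor needed for lung epithelium and for transcription of the surfactant protein genes, read 7.35, 9.10 and 8.11 in fibrotic replicates 3, 7 and 9, 11.24, 11.09 and 11.19 in non-fibrotic replicates 4, 8 and 10, and 9.60, 9.93, 11.67, 11.91, 12.13 and 11.58 in control replicates 1 to 6. Every fibrotic array was below every control, and control replicates 1 and 2 were the lowest controls, as they were for Sftpb. Nkx2-1 fell by 2.95 in fibrotic against control bronchi (adjusted p = 0.000841), and by 1.57 with control replicates 1 and 2 as the only controls (adjusted p = 0.0874, which did not pass). Without fibrotic replicate 3 its adjusted p was 0.0101. The forkhead factor Foxa2, below the background level on all 3 fibrotic arrays, was at least 8.02-fold lower than in control bronchi, or at least 4.89-fold lower than in control replicates 1 and 2 (adjusted p = 1.68e-05 with all controls), and Foxa1 fell by 4.38, or by a difference of -2.97 with values under the background level set to it (adjusted p = 0.000144). With control replicates 1 and 2 as the only controls their adjusted p-values were 0.0145 and 0.0195. Cebpa, a leucine zipper factor of type II and myeloid cells, rose by 2.39 in fibrotic (adjusted p = 0.000466) and by 2.95 in non-fibrotic bronchi (adjusted p = 0.00161), and its adjusted p-values with those controls alone were 0.0296 and 0.08. In fibrotic replicate 7 the high Sftpc, Lamp3 and Slc34a2 stood beside an Nkx2-1 signal below every control and a Foxa2 signal below the background level. Other factors of the list differed in direction on that array. Foxa1 (5.60) and Klf5 (11.68) were below every control, whereas Etv5 (9.31) and Cebpa (11.78) were above every control.

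Because Nkx2-1 and the forkhead factors fell with Sftpb, the promoters of Sftpb, of Sftpa1, which was low on 2 fibrotic arrays, and of Lamp3, which did not pass, are shown. RefSeq promoter sequences of the rat GRCr8 assembly were held for 6 of the 9 members, and the 250 bases before the annotated start were searched on both strands for CTNNAG, a core of the Nkx2-1 motif that reads the same on either strand, and for TGTTTNC, a forkhead core whose reverse complement is GNAAACA. Capitals mark a match to either, and a match is a description of the letters. The 3 windows are chr4:105917338-105917587 (plus strand), chr16:17042014-17042263 (plus strand) and chr11:94697772-94698021 (plus strand).
Sftpb: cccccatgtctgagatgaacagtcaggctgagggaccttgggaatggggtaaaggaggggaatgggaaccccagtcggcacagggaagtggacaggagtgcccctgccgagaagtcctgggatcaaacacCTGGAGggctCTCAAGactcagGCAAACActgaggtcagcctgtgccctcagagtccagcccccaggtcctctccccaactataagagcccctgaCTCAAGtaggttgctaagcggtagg
Sftpa1: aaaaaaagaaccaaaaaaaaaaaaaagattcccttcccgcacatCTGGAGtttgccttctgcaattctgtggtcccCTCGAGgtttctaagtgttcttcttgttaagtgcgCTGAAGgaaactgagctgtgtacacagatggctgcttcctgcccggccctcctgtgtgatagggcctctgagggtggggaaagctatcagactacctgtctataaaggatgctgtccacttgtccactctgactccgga
Lamp3: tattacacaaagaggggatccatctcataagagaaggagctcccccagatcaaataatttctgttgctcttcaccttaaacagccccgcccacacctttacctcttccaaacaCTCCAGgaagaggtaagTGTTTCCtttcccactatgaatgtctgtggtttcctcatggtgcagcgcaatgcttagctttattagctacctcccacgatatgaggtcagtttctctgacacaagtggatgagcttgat

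The Sftpb window held 3 matches to CTNNAG and 1 to the forkhead core, that of Sftpa1 held 3 and none, and that of Lamp3 held 1 and 1. Among the other windows Abca3 held 2 matches to CTNNAG and Slc34a2 held 1, and neither held the forkhead core, while Lpcat1 held neither motif. Over 33469 promoter windows of the same length, 72.1% held at least 1 CTNNAG and 14.3% at least 3, 18.3% held the forkhead core, and 13.1% held both motifs. Matches to CTNNAG were thus common among promoters in general.

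Surfactant phospholipid is built and turned over by general lipid enzymes, which were counted as separate lists. Of 16 genes of phospholipid and fatty acid synthesis 2 rose and 2 fell in fibrotic against control bronchi, with a median of 0.13. Plin2, the coat protein of lipid droplets (3.54, adjusted p = 6.8e-06), and Acsl4, an acyl-CoA synthetase (1.83, adjusted p = 0.000109), rose, and Acsl4 was the only one to pass in non-fibrotic bronchi (1.52, adjusted p = 0.00647). Chpt1, which makes phosphatidylcholine, fell by 2.51 (adjusted p = 0.000189), and Srebf1, a master regulator of fatty acid synthesis below the background level on all 3 fibrotic arrays, was at least 3.60-fold lower (adjusted p = 0.000356). With control replicates 1 and 2 as the only controls Plin2 alone of these passed in fibrotic bronchi, the adjusted p-values being 0.0161 for Acsl4, 0.0385 for Chpt1 and 0.0645 for Srebf1, and Acsl4 did not pass in non-fibrotic bronchi (0.188). Its call in non-fibrotic bronchi was also lost without any one of the non-fibrotic arrays or of control replicates 3 to 6 (0.0116 to 0.0249). Of 10 genes of surfactant processing and clearance (of 11 listed), the sterol exporters Abca1 and Abcg1 rose and Prdx6 fell by 2.37 (adjusted p = 1.57e-06) in fibrotic bronchi. Against control replicates 1 and 2 alone Prdx6 passed, whereas Abca1 (0.156) and Abcg1 (0.142) did not, and both lost their calls without fibrotic replicate 3 (0.0195 and 0.0244), as did Abca1 without fibrotic replicate 9 (0.0147). Prdx6 encodes the peroxiredoxin with the phospholipase activity that recycles surfactant phospholipid.

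The protein families of the members did not move as a whole. Of 16 relatives with a probe set (of 17 listed) 4 rose and 3 fell in fibrotic against control bronchi, with a median of 0.32, and none passed in non-fibrotic bronchi. The transporter Abca1 rose by 2.51 (adjusted p = 0.00248) while its relative Abca3 fell, and the collectin Colec12 rose by 2.65 (adjusted p = 0.000944) while its relative Sftpd fell. Slc34a3, a relative of Slc34a2 known from the kidney, was below the background level on all 3 fibrotic arrays and at least 5.99-fold lower than in control bronchi (adjusted p = 0.000226), or at least 2.44-fold lower than in control replicates 1 and 2. Against those 2 controls alone the calls of the relatives were lost, with adjusted p-values of 0.156 for Abca1, 0.0178 for Colec12 and 0.128 for Slc34a3.

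On the question whether alveolar tissue was captured with the bronchi, the measurements are as follows. Sftpc was above the background level on all 12 arrays and Ager on all but the array of control replicate 3. Between 60.0% and 70.6% of all probe sets were above that level on each array. Ager read 6.77 to 7.92 on fibrotic, 6.47 to 8.54 on control and 8.42 to 9.84 on non-fibrotic arrays. Control replicate 1, at 8.54, was above non-fibrotic replicate 8, at 8.42. Signals near the background level do not by themselves show that its transcript was present. By group mean both genes were highest in non-fibrotic bronchi, although neither passed against control bronchi. The means in non-fibrotic, control and fibrotic bronchi were 13.346, 11.884 and 10.982 for Sftpc and 9.145, 7.359 and 7.309 for Ager. Their spread differed, since Sftpc varied most among fibrotic arrays and Ager did not. The mean log2 signal of the 16 type I genes was 9.86 to 10.48 on non-fibrotic, 8.95 to 9.51 on fibrotic and 8.85 to 9.39 on control arrays. How much alveolar wall each specimen held was not measured. Its part in the differences of Sftpc, Lamp3, Slc34a2, Ager and the type I list between arrays was not tested.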

How the data were processed

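The authors amplified total RNA of 12 laser-captured specimens, hybridized it to Affymetrix arrays and deposited 1 table of MAS5 signal intensity, scaled per array; versions of the tools are not given in the sources used here. The table was not normalized further. Probe sets were named through the platform annotation (20826 had 1 gene symbol, 436 several and 9780 none), the 57 Affymetrix control probe sets were left out of the tests, and 31042 were fitted on the log2 scale with limma 3.58.1 in R 4.3.3 (lmFit and eBayes with an intensity trend, 3 groups, all 12 arrays), with Benjamini-Hochberg adjustment over all of them and calls at an adjusted p under 0.01. The method was tested on simulated data drawn with independent normal noise. The simulation held no shift between controls by form of description, no shared rats and no outlying array. It therefore does not bear on these. Where all arrays of a group lay under the background level, a fold was computed against that level and given as "at least". The number of arrays limits the precision.

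Members and gene lists were chosen with earlier results of these data known. The text names the members, up to 4 genes of smallest p per list and comparison, defining cell type markers and the 10 genes most like Sftpc; Scgb3a2 and Marco were not analysed here. Alternatives covered the threshold, filters, pseudocount and floor, normalization, trend, array weights, samples entering the fit, the form of the description, choice of probe set, and leaving out each array.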

Additional observations from a re-analysis of the deposited data

Results flagged for a closer look

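Sftpb and Sftpd were singled out because their change in fibrotic bronchi differed from their change in non-fibrotic bronchi, by the limma test of fibrotic against non-fibrotic arrays. The difference was -4.00 on the log2 scale for Sftpb (adjusted p = 0.000612; lower on 3 of 3 fibrotic arrays than on every non-fibrotic array) and -3.16 for Sftpd (adjusted p = 0.00083; likewise 3 of 3). No control array of any of the 12 member probe sets lay far enough from the other 5 to be singled out by Dixon's criterion for 6 samples.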

How the results depend on the processing

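Leaving out 1 array at a time, the number of members called was 2 to 4 in fibrotic against control, 0 to 1 in non-fibrotic against control and 2 to 3 in fibrotic against non-fibrotic bronchi. For fibrotic against control bronchi it was 0 with control replicates 1 and 2 as the only controls and 1 (Sftpd) with a fixed term for the form of the description, the main count being 3, where 1.31% and 4.31% of all probe sets were called. For non-fibrotic against control bronchi it was 1 (Sftpa1) with only the groups compared in the fit (0.583% of all probe sets). For fibrotic against non-fibrotic bronchi it was 5 at an adjusted p under 0.05 (9.57% of all probe sets), 4 with a floor at the 20th percentile (4.44%), and 1 (Sftpb) without the intensity trend (1.62%) or with only the groups compared (0.941%). Values that changed sign, none of them called, were as follows. With array quality weights Lamp3 (-0.19) and Slc34a2 (-0.10) turned negative in fibrotic against control bronchi, as they did with control replicates 3 to 6 only (-0.36 and -0.35), and Slc34a2 was -0.18 with control replicates 1 and 2 only and fibrotic replicate 7 left out, a setting chosen after seeing the data. Leaving out 1 array, Lamp3 ranged over -1.06 to 0.89, Slc34a2 over -1.30 to 1.22 and Sftpc over -2.49 to 0.84 there. In non-fibrotic against control bronchi Sftpd was -0.27 with quantile normalization and -0.023 with array quality weights, Abca3 was 0.11 with the mean of its probe sets and 0.47 with its second probe set, and leaving out 1 array they ranged over -0.08 to 0.22 and -0.59 to 0.12. Of 738 alternative values for the members, 690 kept their direction and their side of the threshold, 10 lost and 20 gained a call, and 18 changed sign; the causes were not tested. Of 2373 values for the other called genes, 2008 kept both and 365 lost the call. No paired analysis was possible because the labels do not tie specimens to rats. Signals near 6.52 limit Slc34a2 and Lamp3 most.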
